A study of Mus musculus with 9 samples.

Results

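V8 was 1 of the 10 clusters into which the authors divided visceral motor neurons (MNs) of the mouse spinal cord, the preganglionic neurons of the autonomic nervous system. Its members were the nuclei that carried the name V8 in the authors' annotation and had values in the matrix of cholinergic nuclei. There were 467 of them among 16042 cholinergic nuclei and 5613 visceral nuclei, and 463 lay in the 3 lumbar/sacral libraries. The spinal cords came from 12 mice aged 8 weeks, in which *Chat-IRES-Cre* turned on a GFP-tagged protein of the nuclear envelope, so that GFP+ nuclei could be sorted. The mice formed 3 pools of 4, with 2 males and 2 females in replicate 1, males in replicate 2 and females in replicate 3. The cords of a pool gave 1 library each of cervical, of thoracic and of lumbar/sacral tissue, 9 libraries in all. No group received a treatment. The Cre line marks any cell in which the *Chat* locus was ever active, a library holds 4 mice that cannot be told apart, and the lumbar/sacral libraries mix lumbar with sacral cord.

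Preganglionic visceral MNs send cholinergic axons to autonomic ganglia, whose neurons in turn act on organs and vessels. In the lumbar and sacral cord they belong to sympathetic and parasympathetic groups, and the sacral parasympathetic group is known for its control of bladder, bowel and genital organs. Many autonomic neurons also make neuropeptides, which are cut from longer precursors and released beside acetylcholine. Somatostatin and the enkephalins are peptides of this kind that mostly inhibit the cells they reach. Which of these groups V8 belongs to cannot be told from dissociated nuclei alone. By in situ hybridization the authors found *Sst*, the somatostatin gene, in many visceral MNs of the sacral cord. They linked these cells to preganglionic neurons described earlier as acting on bladder and bowel. The paper proposes that these cells belong to a cluster of a separate, finer division of visceral MNs, and does not name V8 there. That cluster was found only in the lumbar/sacral region and had *Sst*, the enkephalin gene *Penk* and the adrenergic receptor gene *Adra1a*. How V8 relates to it was not examined here.

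The values were corrected counts, made by the authors with a model that brings the nuclei of a library to a like total. In the lumbar/sacral libraries the median total per V8 nucleus was 4706, 6764 and 5311 corrected counts in replicates 1, 2 and 3. The other visceral nuclei of these libraries had 4773, 7107 and 5474. The medians over all cholinergic nuclei were 4712 to 7175 in the lumbar/sacral libraries and 7087 to 16127 in the others, so depth moved with region, and its part in the differences between regions was not tested. Of the distinct cell barcodes, 130 of 34101 were found in more than 1 library, and 3 V8 nuclei carried such a barcode. Libraries of replicate 2 went against their labels. In visceral nuclei *Hoxa9*, a gene of the trunk and tail, stood at 5.31 CPM in the library labelled cervical replicate 2, against 0.407 and 0.535 in the other cervical libraries. It stood at 0.277 CPM in the library labelled thoracic replicate 2, against 6.41 and 3.85 in the other thoracic ones. Cervical and thoracic libraries were therefore joined into 1 group here, which leaves comparisons with lumbar/sacral libraries the same if these labels were exchanged.

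V8 made up about 3 in 10 visceral nuclei of the lumbar/sacral cord and was nearly missing elsewhere. It held 225 of 673 visceral nuclei (33.4%, Wilson 95% interval 30.0 to 37.1) in lumbar/sacral replicate 1. In replicate 2 it held 116 of 450 (25.8%, 22.0 to 30.0) and in replicate 3 it held 122 of 377 (32.4%, 27.8 to 37.2). In the cervical libraries it held 3 of 1077 visceral nuclei in replicate 1, 1 of 420 in the library labelled replicate 2 and 0 of 374 in replicate 3. None of the 861, 402 and 979 visceral nuclei of the thoracic libraries was V8, which allows a share of up to 0.348, 0.746 and 0.306% (3 counts of the total; the Wilson 95% upper limits are 0.444, 0.947 and 0.391%). The mean share was 30.5% ± 4.14 (SD, n = 3 libraries) in lumbar/sacral and 0.0861% ± 0.134 (SD, n = 6) in the other libraries, and the groups did not overlap. The difference was 30.4 points. The cluster was chosen with its region known, so this difference is a description and carries no p. As a share of all cholinergic nuclei V8 was 8.70, 6.56 and 6.84% in the lumbar/sacral libraries. The intervals cover counting error only.

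**Figure D1:**
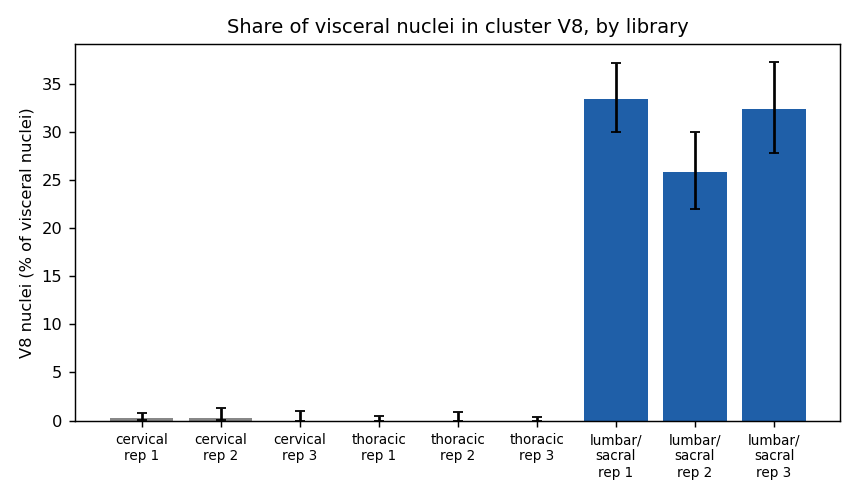
Share of visceral nuclei that belonged to V8 in each of the 9 libraries, in percent, with Wilson 95% intervals for counting error. The 3 lumbar/sacral libraries stand at 25.8 to 33.4% and the other 6 at 0 to 0.279%.

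The 4 V8 nuclei from cervical libraries were few and had no signal for the marker peptides. None had a corrected count of *Sst*, *Penk*, *Adra1a* or *Slc26a7*, and all 4 had counts of *Fbn2* (5 to 15), *Nos1* (1 to 12), *Zeb2* (1 to 8) and *Ntng1* (13 to 36). *Hoxd11* and *Hoxa9* were at 0 in all 4. With so few nuclei no comparison was made, and what follows concerns the 463 lumbar/sacral nuclei.

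Levels of visceral marker genes in V8 are described first. *Fbn2*, which codes for fibrillin 2 of the extracellular matrix, was present in 99.1, 99.1 and 99.2% of V8 nuclei in replicates 1, 2 and 3. It was present in 88.2 to 94.0% of the other visceral nuclei, 8.61 to 13.3% of skeletal MNs and 4.45 to 6.35% of cholinergic interneurons. Its level in V8 was 1473, 981 and 1062 CPM (the sum of a gene's corrected counts in a group of nuclei, scaled to 1000000), and in other visceral nuclei 1165, 891 and 904.8 CPM. *Zeb2*, a transcription factor gene on the list of visceral MN markers, stood at 5.82, 5.16 and 12.4 CPM in V8 and at 282.6, 310.7 and 332.1 CPM in other visceral nuclei. *Zeb2* was found in 2.22, 1.72 and 4.10% of V8 nuclei, against 4.24 to 5.92% of skeletal MNs and 2.37 to 2.65% of interneurons of the same libraries. In replicate 3 the V8 share lay above that of interneurons (2.37%) and just below that of skeletal MNs (4.24%). V8 thus had *Fbn2* in nearly every nucleus and *Zeb2* in few. The authors had already reported this pattern for V8 and used it in naming the cluster visceral. *Fbn2* is also a marker given for V8, so these values are no independent support for the label.

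Markers of other cells were compared next. The skeletal MN list of 9 genes summed to 966 to 1173 CPM in V8, 653.7 to 743.7 in other visceral nuclei, 887.4 to 934.7 in interneurons and 3199 to 3712 in skeletal MNs, so V8 lay above the other visceral nuclei. Of its members *Stk32a*, a kinase gene, was counted as higher in V8, at 235.6, 197.5 and 128.5 CPM against 78.9, 61.1 and 44.0, and *Sv2b* and *Nrp2* as lower. Also on the list, *Tns1* stood at 9.04 to 22.3 CPM in V8 against a mean of 391.7 in skeletal MNs, whereas *Gfra1*, a receptor for the growth factor GDNF, stood at 261.6 to 454.7 CPM in V8 and at 581.8 in skeletal MNs. The 5 interneuron markers summed to 26.2 to 33.6 CPM in V8 and to 802 to 859.9 in interneurons. The 6 astrocyte markers summed to 46.4 to 107.6 CPM in V8 and to 20.8 to 28.8 in other visceral nuclei, and their part in the differences was not tested. Among them *Aqp4*, *Slc1a3*, *Aldh1l1* and *Gja1* were at 0 in V8. *Slc1a2*, a glutamate transporter gene on that list, stood at 107.6, 78.7 and 44.9 CPM in V8 and at 16.9 to 23.6 in other visceral nuclei. Oligodendrocyte markers summed to 37.8 to 51.6 CPM in V8 and to 37.7 to 63.8 in other visceral nuclei. Microglia markers summed to 2.91 to 136.2 and 5.32 to 66.0 CPM, with *Csf1r* and *Tmem119* at 0 in V8. The cholinergic genes were present: *Chat*, the enzyme that makes acetylcholine, stood at 149.3, 147.2 and 131.6 CPM, and *Slc5a7*, which takes choline back up, at 284.1, 303.3 and 281.7.

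V8 was compared with the other visceral nuclei (V1 to V7, V9 and V10 together) within each lumbar/sacral library. The clusters had been drawn from these same genes in these same nuclei, so the differences are a description and carry no test. A gene was counted as higher or lower where log2(CPM + 5) differed by at least 1, which is close to a doubling, in each of the 3 libraries. Of 9700 genes that reached 10 CPM in 3 or more of the 6 sums, 150 (1.55%) were higher and 270 (2.78%) lower in V8, and the median difference over all 9700 was -0.06. The counted genes were long: the median gene length was 177.3 kb for higher and 160.9 kb for lower genes, against 36.3 kb over all genes past the filter.

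The neuropeptide genes *Sst*, *Penk* and *Cartpt* were higher in V8 than in the other visceral nuclei. Of 50 listed genes 7 passed the filter, these 3 were counted as higher and none as lower, and the median difference over the 7 was 0.56. *Sst* and *Penk* are also markers given for V8, so their place in the count is no independent support. *Sst* codes for somatostatin, an inhibitory peptide, and lies at chr16:23889573-23890958 (GRCm38, minus strand). It stood at 346.1, 324 and 484.5 CPM in V8 of replicates 1, 2 and 3, and at 19.8, 25.3 and 21.3 CPM in other visceral nuclei, a mean log2 difference of 3.83 ± 0.39 (SD, n = 3). *Penk*, the enkephalin precursor gene at chr4:4133531-4138819 (minus strand), stood at 338.4, 657 and 339 CPM against 29.5, 54.5 and 14.7, a difference of 3.64 ± 0.43. The male pool had the highest *Penk* in V8, and also in the other visceral nuclei and in interneurons, where it was 69.6 CPM against 31.0 in the female pool. With 1 pool of each sex this difference has no test. *Cartpt*, the gene of the CART peptide at chr13:99898489-99901091 (minus strand), stood at 264.7, 296.9 and 257 CPM against 21.3, 55.8 and 25.7, a difference of 2.92 ± 0.55. For all 3 genes the lowest V8 library lay above the highest of the other visceral sums.

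The promoters of *Sst* and *Cartpt* are shown because both hold the full cAMP response element. CREB proteins are known to bind this site after a rise in cAMP and calcium. The promoter set used had no entry for *Penk*, so its promoter was not examined. The windows run from 250 bases before to 50 bases after the RefSeq start site (GRCm38.p6), *Sst* at chr16:23890795-23891094 and *Cartpt* at chr13:99900634-99900933, both on the minus strand and printed 5′ to 3′. Capitals mark the element TGACGTCA, which reads the same on both strands and contains the shorter site TGACG on each.
Sst: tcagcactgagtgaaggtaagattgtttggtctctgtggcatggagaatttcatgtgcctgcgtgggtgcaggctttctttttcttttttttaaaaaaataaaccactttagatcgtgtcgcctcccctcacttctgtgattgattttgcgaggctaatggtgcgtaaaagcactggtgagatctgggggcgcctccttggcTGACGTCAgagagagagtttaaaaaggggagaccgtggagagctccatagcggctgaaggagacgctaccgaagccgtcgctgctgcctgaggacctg
Cartpt: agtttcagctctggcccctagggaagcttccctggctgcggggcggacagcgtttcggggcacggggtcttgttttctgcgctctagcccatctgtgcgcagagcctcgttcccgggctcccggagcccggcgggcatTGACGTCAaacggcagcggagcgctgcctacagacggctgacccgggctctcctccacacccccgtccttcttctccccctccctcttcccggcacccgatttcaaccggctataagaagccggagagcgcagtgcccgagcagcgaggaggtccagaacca
The element begins 48 bases before the start site in *Sst* and 112 bases before it in *Cartpt*. It is found in 1.79% of 32851 promoters of this length, and the shorter site on either strand in 20.8%. Of the 50 peptide genes, 41 had a promoter in the table, and 3 of these held the element, *Sst*, *Cartpt* and *Ucn*. Of the 150 genes counted as higher in V8, 115 had a promoter and 4 of these held it (3.48%), against 3.82% of the 7389 genes past the filter that had one. A match of letters is a description of the window and no evidence of binding.

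The peptide transcripts were spread over most V8 nuclei. *Sst* was found in 71.1, 81.0 and 82.0% of V8 nuclei of replicates 1, 2 and 3, *Penk* in 72.9, 93.1 and 75.4% and *Cartpt* in 59.6, 75 and 68.0%. In skeletal MNs of the same libraries, whose median totals were 4923, 7338 and 5912 corrected counts, *Sst* was found in 6.83 to 13.0% of nuclei, which serves as its background. Other visceral nuclei had *Sst* in 8.04 to 15.6% and *Penk* in 5.88 to 24.0%. Nuclei were then thinned to 4000 corrected counts each. This left out 13.8% of V8 nuclei and 16.1% of other visceral nuclei of replicate 1, and none of replicates 2 and 3. After thinning *Sst* was found in 69.7% ± 5.46 (SD, n = 3) of V8 nuclei and 8.52% ± 1.99 of other visceral nuclei. Before thinning these shares were 78.0% ± 6.02 and 11.3% ± 3.88. At least 1 of the 3 peptide genes was found in 94.2, 99.1 and 94.3% of V8 nuclei, and in 24.8, 49.7 and 21.6% of other visceral nuclei. All 3 were found together in 33.8, 58.6 and 45.9% of V8 nuclei, and in 0 of 448, 1 of 334 and 1 of 255 other visceral nuclei.

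*Sst* and *Penk* were found in the same nuclei slightly more often than the product of their shares in each library. Both were found in 120 of 225 V8 nuclei of replicate 1, or 53.3%, where the product of the shares is 51.8%. In replicate 2 it was 89 of 116 nuclei, 76.7% against 75.4%, and in replicate 3 it was 80 of 122 nuclei, 65.6% against 61.8%. Where shares are this high the product lies near its upper limit and shows little. *Penk* was found in 75, 94.7 and 80% of V8 nuclei with *Sst* in replicates 1, 2 and 3. Among V8 nuclei without *Sst*, it was found in 67.7, 86.4 and 54.5%. These nuclei were the smaller part, and the difference was not tested. Nuclei with strong *Sst* signal were nearly all V8, which did not hold for *Penk* and *Cartpt*. Of 159 lumbar/sacral cholinergic nuclei with at least 3 corrected counts of *Sst*, 156 were V8. For *Penk* it was 164 of 223, with 35 of the rest interneurons, and for *Cartpt* 82 of 185, with 76 interneurons. The threshold of 3 was chosen after the values were seen.

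**Figure D2:**
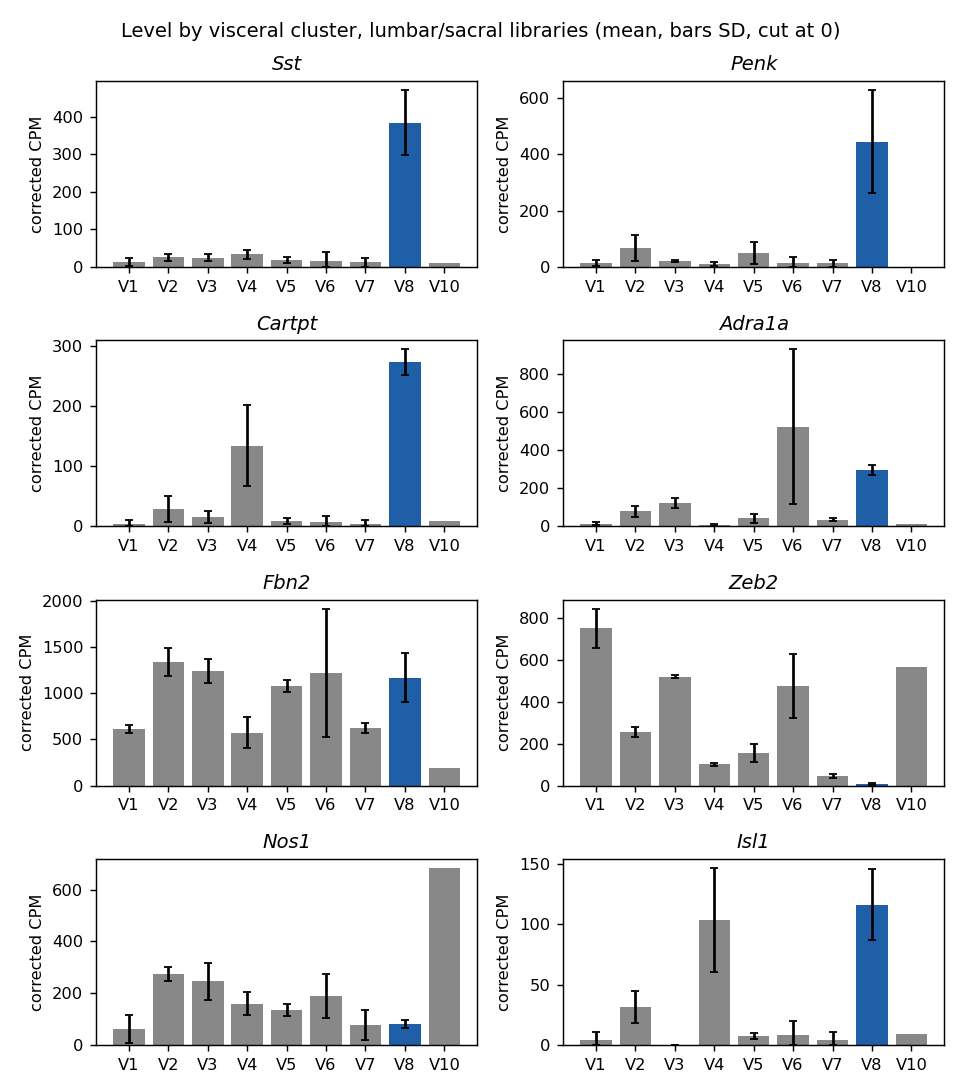
Level of 8 genes in the visceral clusters of the lumbar/sacral libraries, in CPM, as mean and SD over the libraries in which the cluster had 10 nuclei or more (3 libraries, but 2 for V6 and 1 for V10). *Sst* and *Penk* stand highest in V8, *Adra1a* is also high in V6, *Isl1* and *Cartpt* also in V4, and *Zeb2* is lowest in V8.

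Receptor genes came next. *Adra1a*, the alpha-1A adrenergic receptor through which noradrenaline excites neurons, stood at 309.3, 311.1 and 266.3 CPM in V8 and at 92.9, 53.2 and 65.3 CPM in other visceral nuclei, a difference of 2.02 ± 0.38. It was found in 72, 75 and 69.7% of V8 nuclei, and in a mean of 19.2% of other visceral nuclei and 18.3 to 30.3% of skeletal MNs. It was not highest in V8: V6, with 10 and 13 nuclei in the libraries used, stood at 522.4 CPM ± 406.9 (SD, n = 2), and these levels overlap. *Adra1a* was the higher of 2 adrenergic receptors that passed the filter out of 9 listed, and *Adra1b* stood at 9.04 to 39.8 CPM in V8 against 40.6 to 67.2 in other visceral nuclei.

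Of 58 listed neuropeptide receptors 13 passed the filter, and 3 were counted as higher in V8 and none as lower. *Rxfp1*, the relaxin receptor, stood at 519.7, 353.7 and 478.4 CPM against 157.7, 73.7 and 136.4, a difference of 1.88 ± 0.27. Its level in V6 was 437.6 CPM ± 183.1 (SD, n = 2), within the spread of V8, at 450.6 ± 86.4 (SD, n = 3). *Hcrtr2*, a receptor for the orexin peptides, stood at 284.1, 144.6 and 207.4 CPM against 43.6, 31.8 and 50.6. *Tacr1*, the receptor for substance P, stood at 361.6, 209.1 and 335.9 CPM against 109.3, 80.7 and 96.8, and was found in 70.7 to 77.0% of V8 nuclei. Its level in V4, 210.4 to 239.4 CPM, lay within the range of V8. The median difference over the 13 receptors was -0.04. Among 14 serotonin receptors 6 passed, of which *Htr1f* was counted as higher, at 90.4 to 173.4 CPM against 25.3 to 46.0. Of 5 muscarinic receptors 2 passed, and *Chrm2* was counted as lower, at 10.8 to 40.7 CPM against 138.8 to 172.2. None of 5 dopamine receptors passed, and 1 of 16 nicotinic subunits did and was not counted. The estrogen receptor gene *Esr1* had a log2 difference of 1.27 ± 0.53 but did not reach 1 in every library, and none of the 8 steroid receptors past the filter was counted.

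**Figure D3:**
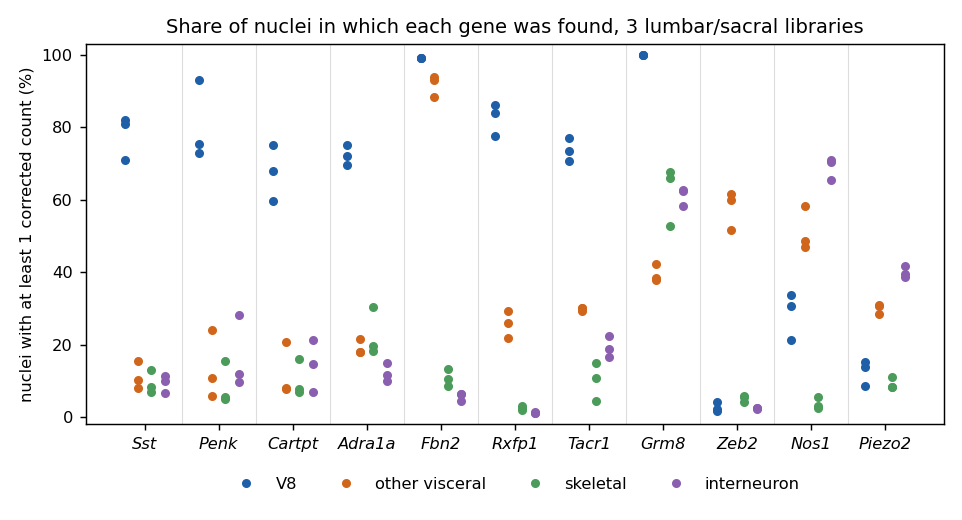
Percent of nuclei in which each gene had 1 or more corrected counts, in the 3 lumbar/sacral libraries, for V8, other visceral nuclei, skeletal MNs and cholinergic interneurons, 1 point per library. *Sst*, *Penk*, *Cartpt*, *Adra1a*, *Rxfp1* and *Tacr1* lie above the other classes in V8, *Fbn2* is shared with other visceral nuclei, and *Zeb2* in V8 is at 1.72 to 4.10%.

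Genes for peptide processing did not follow the peptides. Of 19 processing and granin genes all passed the filter, none was counted as higher, and *Pcsk6*, a proprotein convertase gene, was counted as lower at 0 to 4.85 CPM against 13.2 to 20.5. The median difference over the list was 0.20. *Cadps*, which primes dense-core vesicles, had a difference of -0.93 ± 0.02 (SD, n = 3), just short of the limit for counting.

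Genes of nitric oxide and cyclic GMP signalling were lower or did not reach the limit. Of 19 listed, 13 passed, 4 were counted as lower and none as higher, with a median difference of -0.80. *Nos1*, the neuronal enzyme that makes nitric oxide and a marker of many preganglionic neurons, stood at 97.9, 71.0 and 71.2 CPM in V8 and at 212.9, 195.9 and 216.3 CPM in other visceral nuclei. It was found in 30.7, 33.6 and 21.3% of V8 nuclei, in 47.1 to 58.4% of other visceral nuclei and in 2.46 to 5.48% of skeletal MNs, so V8 lay above that background. *Nos1* in V8 (80.0 CPM ± 15.5, n = 3) was not distinct from V7 (76.6 ± 56.8) or V1 (62.2 ± 54.7). The others were *Prkg2*, a kinase activated by cyclic GMP, and the phosphodiesterase genes *Pde1c* and *Pde9a*.

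Transcription factor genes differed in both directions. Of 52 listed, 24 passed, 6 were counted as higher and 2 as lower. *Isl1*, a LIM factor that sets MN identity, stood at 83.4, 123.9 and 140.9 CPM in V8 and at 30, 34.5 and 13.2 in other visceral nuclei. By cluster *Isl1* was at 116.1 CPM ± 29.5 (SD, n = 3) in V8, at 103.3 ± 43.3 in V4, within that spread, and at 0 in V3. *Zfhx3* and *Zfhx4*, which code for large zinc finger homeodomain proteins, had differences of 2.00 ± 0.24 and 2.99 ± 0.21. *Zfhx3* was as high in V6, at 622 CPM, as in V8, at 546 to 621.5. *Ebf1*, *Etv5* and *Bcl6* were the other higher genes, and *Zeb2* and *Nfib* the lower ones.

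*Hox* genes record position along the body axis. *Hoxd11* stood at 57.2, 83.9 and 49.5 CPM in V8 and at 32.9, 32.3 and 26.4 in other lumbar/sacral visceral nuclei, a difference of 0.71 to 1.25 in log2. In visceral nuclei of the 6 cervical and thoracic libraries it was at 0. *Hoxa9* stood at 48.5, 55.5 and 51.1 CPM in V8 and at 37.3 to 39.6 in the other lumbar/sacral visceral nuclei. The most caudal genes *Hoxa13*, *Hoxb13* and *Hoxd13* were at 0 in V8. None of the 8 *Hox* genes past the filter, out of 39 listed, was counted, and their median difference was 0.34.

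The 15 genes furthest above the other visceral nuclei, ranked by the library with the smallest difference, were *Slc26a7*, *Gm28928*, *Tmem132c*, *Sst*, *Penk*, *Grm8*, *Frmd6*, *Ryr3*, *Ano4*, *Zfhx4*, *Ppef1*, *Hs6st2*, *Frem2*, *Usp3* and *Alcam*. *Slc26a7*, an anion transporter gene at chr4:14502430-14621805 (minus strand), led them at 198.8, 134.2 and 202.8 CPM in V8 against 10.2, 5.67 and 3.67, a difference of 4.01 ± 0.50. It was found in 52.9, 49.1 and 63.1% of V8 nuclei and in 0.498 to 0.863% of skeletal MNs. *Grm8*, a metabotropic glutamate receptor that dampens transmitter release, was found in every V8 nucleus of the 3 libraries, at 4140, 3174 and 3167 CPM against 338.7, 210.8 and 340.2. *Hs6st2*, a heparan sulfate sulfotransferase gene, had the steadiest difference of the 15, at 2.68 ± 0.04. *Ryr3*, a calcium release channel of the endoplasmic reticulum, stood at 739.6 to 990.9 CPM against 57.6 to 117.1, but skeletal MNs were at 1106 ± 163.4. All 15 had their highest mean of the 9 visceral clusters with enough nuclei in V8, by 1.54-fold over the next for *Alcam* to 11.6-fold for *Sst*. Several named genes overlap another gene on the opposite strand: *Tmem132c* (*Tmem132cos*), *Ryr3* (*Aven*), *Zfhx4* (*2700069I18Rik*), *Usp3* (*Gm15563*), *Zeb2* (*Zeb2os*), *Pard3b*, *Reln*, *Gm32647* and *Fbn2*. Whether counting used strand is not given in the sources used here, so their reads may include those of the partner.

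The 10 genes furthest below were *Pde7b*, *Nwd2*, *Zeb2*, *Gm32647*, *Pard3b*, *Prima1*, *Ntng1*, *Col8a1*, *Postn* and *Reln*. *Pde7b*, a phosphodiesterase that breaks down cyclic AMP, stood at 16.5, 3.87 and 6.19 CPM in V8 and at 469.8, 374 and 445.1 in other visceral nuclei, a difference of -5.07 ± 0.53. *Prima1*, which anchors acetylcholinesterase in the membrane, stood at 0.970, 1.29 and 7.74 CPM against 152.9, 308.9 and 200.9. It was found in 0.444 to 1.64% of V8 nuclei. The enzyme itself, *Ache*, was not counted, at 54.3, 32.3 and 34.1 CPM against 54.2, 51.5 and 47.7. For 7 of the 10 the mean was lowest in V8 of the 9 clusters, and *Gm32647*, *Postn* and *Reln* were lower in another.

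**Figure D4:**
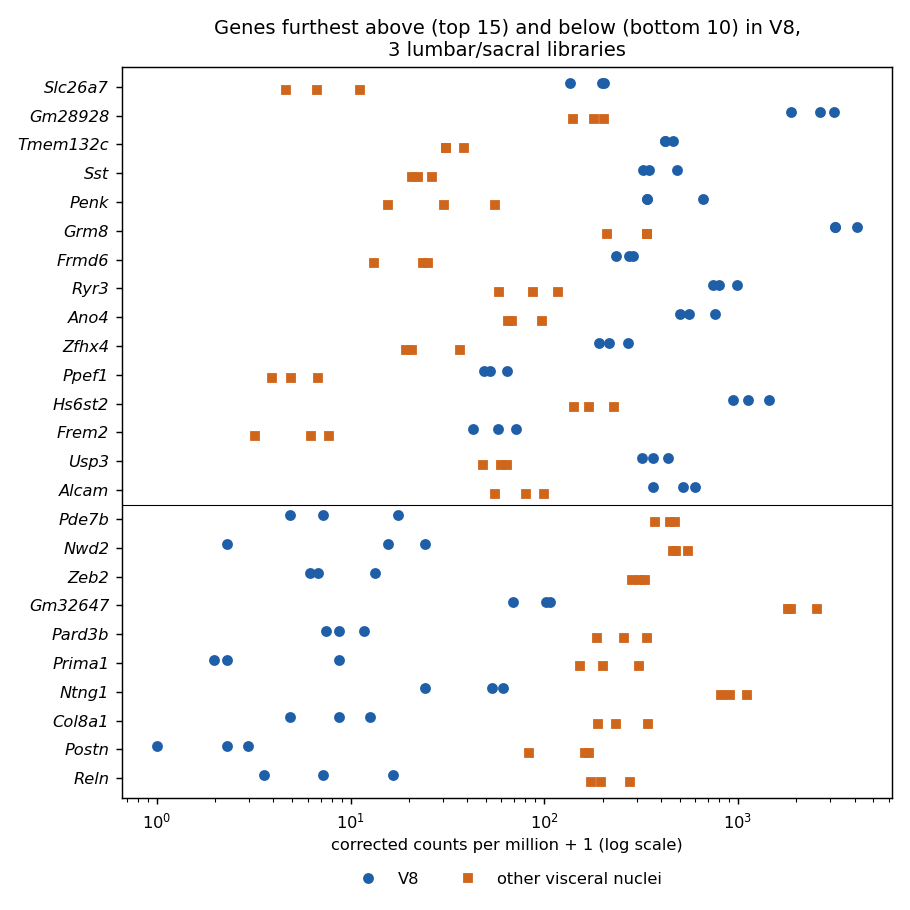
CPM plus 1, on a log axis, of the 15 genes furthest above and the 10 furthest below in V8. Each point is 1 of the 3 lumbar/sacral libraries, circles for V8 and squares for the other visceral nuclei. The genes were picked for their distance, so the gap between the point groups follows from the choice.

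Matrix genes differed in both directions. Of 34 listed, 20 passed, 14 were not counted, 5 were counted as lower (*Reln*, *Postn*, *Fras1*, *Col24a1* and *Col5a2*) and *Frem2* as higher, with a median difference of -0.43. *Fras1* and *Frem2* code for proteins of 1 basement membrane complex and differed in opposite directions: *Frem2* stood at 70.8, 56.8 and 41.8 CPM in V8 against 6.77, 5.24 and 2.20, and *Fras1* at 31.0, 19.4 and 20.1 CPM against 144.2, 82.5 and 125.4. Among channels, *Trpc5* and *Trpm3* were counted as higher and *Piezo2*, the channel opened by stretch of the membrane, as lower, out of 15 that passed. *Piezo2* stood at 45.6, 19.4 and 49.5 CPM in V8 and at 283.5, 158 and 176.7 in other visceral nuclei. Low *Piezo2* was shared: V8 was at 38.2 CPM ± 16.4 and V3 at 42.5 ± 19.2 (SD, n = 3 each), whereas V4 was at 655.7, V7 at 392.7 and V5 at 206.7. It was found in 15.1, 8.62 and 13.9% of V8 nuclei against 8.26 to 11.1% of skeletal MNs, so the shares overlapped. The paper names V2, V3, V7 and V8 as visceral clusters in which *Piezo2* was detected. For V3 and V8 the low levels given here, from lumbar/sacral nuclei only, differ from that list. Of 21 potassium channel genes past the filter *Kcnj6* was counted as higher and *Kcnk9* as lower, and of 11 receptors for neurotrophic factors *Met* as lower, at 0 to 0.970 CPM against 22.2 to 41.6.

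By its whole profile V8 was most like V2. Pearson's r of log2(CPM + 5) over the 9700 genes, between V8 and another cluster of the same library, was 0.859 to 0.913 for V2, 0.850 to 0.894 for V3 and 0.815 to 0.893 for V5 (3 libraries each). The interneuron cluster I1 came next at 0.830 to 0.868, and V4 was at 0.811 to 0.856. These ranges overlap, and the smallest clusters, such as V1 and V7 with 20 to 26 nuclei, had r of 0.742 to 0.791, and the part of cluster size in this order was not tested. These correlations are across genes, which are not independent, and carry no test.

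Within V8 the transcripts that varied most between nuclei, by the ratio of variance to mean, were *Malat1*, *Nrg1*, *Gpc5*, *Gm28928*, *Gm30835*, *Trpm3*, *Pcdh9*, *Erbb4*, *Lrp1b* and *Park2*. The ratio was near 1 for the median of 5680 genes, at 1.02, 1.10 and 1.05 in replicates 1, 2 and 3. For *Malat1*, a nuclear RNA, it reached 119.2 in replicate 2, where its mean was also highest, at 834.7 corrected counts per nucleus against 141.8 and 419.3. The ratio moves with the mean, and the values are model-corrected, so the ranking is a description. *Nrg1*, a neuregulin growth factor gene, was at 6.53 to 7.64. *Gm28928*, also among the 15 higher genes, was at 5.70 to 7.30 and was found in 87.1 to 93.4% of V8 nuclei. For *Sst* the ratio was 1.39 to 1.63, and for *Penk* it reached 2.23 in replicate 2.

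The next question was which genes set lumbar/sacral visceral nuclei apart, and how far this held without V8. The visceral nuclei of each library were summed, and lumbar/sacral libraries were compared with the 6 others by limma, with and without V8 in the sums. Each sum mixes several clusters, and the paper reports that visceral clusters differ in abundance between regions. A change in the level of a gene and a change in the make-up of clusters cannot be told apart in these sums, with or without V8. With V8 included 260 genes (2.59% of 10031 tested) were higher and 218 (2.17%) lower in lumbar/sacral nuclei at an adjusted p under 0.05. With V8 left out 120 (1.2%) were higher and 74 (0.738%) lower. With the replicate as a block, lower genes numbered 337 and 136, and higher ones 378 and 163. The counts rest on each lumbar/sacral library: without replicate 1, 2 or 3, higher genes numbered 100, 119 and 135 with V8 included and 44, 47 and 71 with V8 left out, and lower genes 92, 95 and 126 with V8 included and 27, 21 and 52 with V8 left out. Without cervical replicate 1, lower genes with V8 left out numbered 49. The fits share the cervical and thoracic sums, so the difference between them was not tested.

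Of the 15 genes furthest above in V8, 13 were called higher in lumbar/sacral visceral nuclei with V8 included (not *Gm28928* and *Ryr3*) and 4 with V8 left out. These genes were chosen for high levels in nuclei that lie in the sums with V8, so differences with V8 included are given as a description, without p. Over all 133 genes counted as higher in V8 that were tested, 19 were called higher, 4 lower and 110 neither with V8 left out. Of 266 tested genes counted as lower in V8, 20 were called higher, 23 lower and 223 neither. Over all 10031 genes tested, 2.59% were called higher with V8 included. With V8 left out 1.2% were called higher and 0.738% lower. Genes that reached 10 CPM in fewer than 3 of the 6 other libraries passed the filter only with the help of the lumbar/sacral sums. These counts are therefore a description, and for such genes, among them *Sst*, *Penk*, *Slc26a7*, *Zfhx4*, *Rxfp1* and *Adra1a*, no p is given.

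*Sst* belonged to this kind. In visceral nuclei it stood at 128.5, 100.8 and 170.2 CPM in the lumbar/sacral libraries with V8 included and at 0.803 to 6.65 CPM in the other 6, a log2 difference of 4.00 ± 0.24 (SE). With V8 left out the lumbar/sacral libraries were at 19.8, 25.3 and 21.3 CPM, a difference of 1.68 ± 0.23. That level was near that of lumbar/sacral skeletal MNs (16.7 CPM) and interneurons (18.3 CPM), and the part of free RNA in it was not tested. *Penk* differed by 3.72 ± 0.33 with V8 included and by 1.56 ± 0.40 with V8 left out. In the latter it crossed the threshold only with the replicate as a block or without the library labelled thoracic replicate 2. For a gene that passed the filter in this way, that is a description and no test. *Cartpt* differed by 1.72 ± 0.73 with V8 included and by 0.12 ± 0.75 with V8 left out, and neither was called. Its level in visceral nuclei of the other regions ranged from 1.60 to 78.3 CPM.

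*Rxfp1* and *Adra1a* were also higher in lumbar/sacral visceral nuclei outside V8 than in the other regions, but not in every cluster. *Rxfp1* stood at 278.2, 144.5 and 246.3 CPM with V8 included and at 157.7, 73.7 and 136.4 with V8 left out, against 2.50 to 5.54 CPM in the other regions. *Adra1a* stood at 118.4 to 164.9 CPM with V8 included and at 53.2 to 92.9 with V8 left out, against 4.70 to 6.10 in the other regions. In both cases the lumbar/sacral libraries lay above all 6 others. By cluster mean *Rxfp1* was at 437.6 CPM in V6, 307.8 in V3, 158.3 in V2 and 57.8 in V5. In V1, V4, V7 and V10 it was at 0 to 9.29. *Adra1a* was at 522.4 CPM in V6 and 34.1 to 120 in V2, V3, V5 and V7, but at 6.76 to 12.7 in V1, V4 and V10. Lumbar/sacral skeletal MNs had *Adra1a* at 64.0 CPM.

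Genes with 10 CPM or more in other regions could be tested with V8 left out. *Zfhx3* stood at 109.5 to 169.3 CPM against 11.3 to 37.5, a difference of 2.70 ± 0.30 (limma adjusted p = 0.00142). *Hs6st2* stood at 141.5 to 227.9 CPM against 18.6 to 66.2, a difference of 1.94 ± 0.30 (adjusted p = 0.00802), and this call was lost without lumbar/sacral replicate 1 or 2 (adjusted p = 0.0703 and 0.0592). *Grm8*, so high in V8, stood at 210.8 to 340.2 CPM against 121.9 to 391.5 without it, a difference of 0.26 ± 0.31 (adjusted p = 0.928). *Fbn2*, which was not counted as higher in V8, differed by 1.28 ± 0.17 with V8 included and by 1.21 ± 0.17 with V8 left out (adjusted p = 0.00415 in the latter).

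*Hcrtr2* and *Zeb2* were lower in lumbar/sacral nuclei outside V8. *Hcrtr2* stood at 115 to 149.8 CPM in the other regions and at 31.8 to 50.6 CPM in lumbar/sacral nuclei with V8 left out, where it was called lower by -1.48 ± 0.14 (limma adjusted p = 4.5e-04). With V8 included it was at 60.3 to 123.6 CPM, and the lumbar/sacral libraries then overlapped the others. *Zeb2* differed by -1.09 ± 0.13 with V8 included and by -0.60 ± 0.13 with V8 left out, at an adjusted p of 0.0495. This last call was lost in 13 of the 15 alternatives run, among them leaving out any 1 library, with adjusted p from 0.0383 to 0.264.

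**Figure D5:**
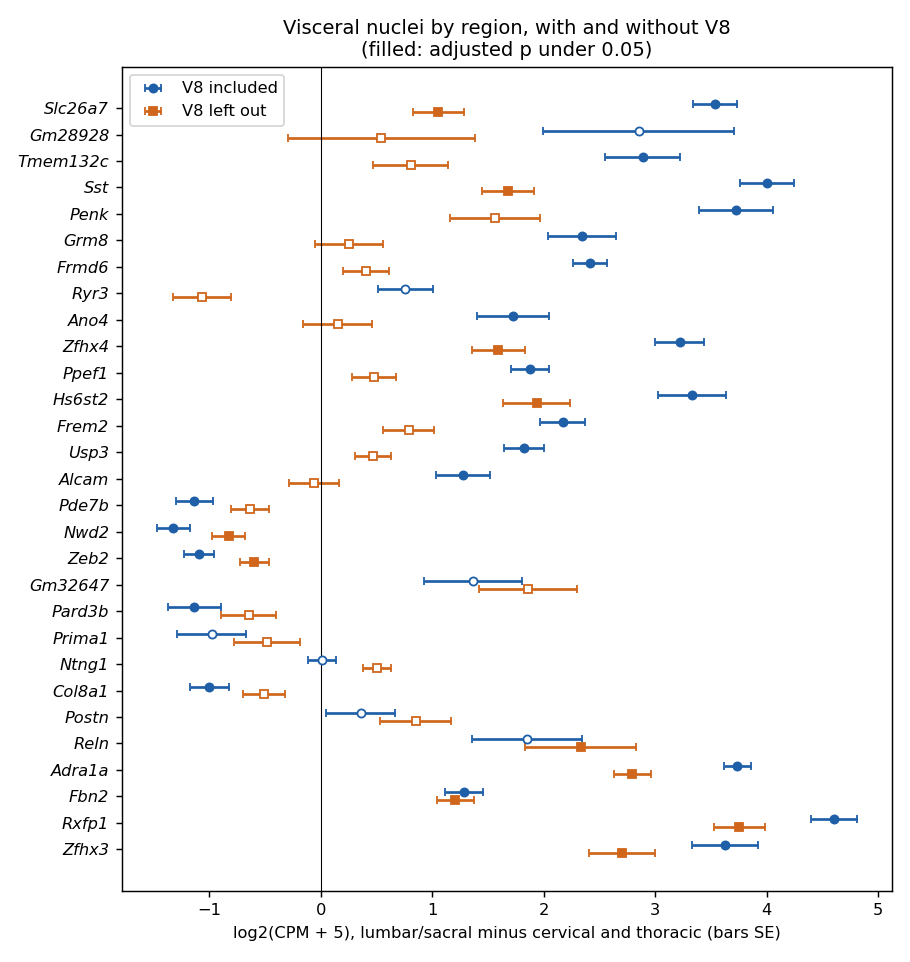
Difference of log2(CPM + 5) between lumbar/sacral and the other visceral nuclei, with SE, from limma on 9 libraries, with V8 included (circles) and left out (squares); filled points have an adjusted p under 0.05. *Sst* moves from 4.00 to 1.68 when V8 is left out, and *Fbn2* from 1.28 to 1.21. Most genes shown were chosen for their level in V8, so the filled circles are a description. The filled squares of *Sst*, *Slc26a7*, *Zfhx4*, *Rxfp1* and *Adra1a* are a description too, since these genes passed the filter only with the lumbar/sacral sums.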

How the data were processed

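Single-nucleus RNA-seq libraries were processed by the authors with Cell Ranger 3.1.0, which counted introns as well as exons of the mouse genome build GRCm38. Outlier nuclei were removed, each region was normalized with SCTransform in Seurat, and the regions were integrated before clustering. The deposited values are SCTransform-corrected counts, treated here as a score made by a model and not as a raw count of molecules. Clusters and classes were those of the authors' annotation.

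Corrected counts were summed per library and group of nuclei, scaled to 1000000 (CPM) and compared as log2(CPM + 5). Regions were compared with limma 3.58.1 (R 4.3.3; intensity-dependent prior variance) and Benjamini-Hochberg adjustment over all genes. The 3 libraries of a replicate came from the same mice, so a replicate block was fitted as an alternative: deviations of same-numbered libraries from the region means correlated at a median r of 0.644 (range -0.135 to 0.866 over 9 pairs). Each library pooled 4 mice, so p-values do not measure the spread between mice. The p-values printed are from the fit without the block, which treats the 9 libraries as independent. Its spread mixes differences between pools with those between cervical and thoracic cord. Doublets were called with Scrublet in scanpy 1.11.5 (1.02% of 16042 nuclei, 7 in V8) and left out as an alternative only. Scripts were tested on simulated data. Gene positions are from GENCODE M21 and promoters from RefSeq (GRCm38.p6). The members and the gene lists were chosen with earlier results of these data known. Named genes are the 15 highest and 10 lowest differences among counted genes, ranked by the library with the smallest difference, the markers given for V8, and the members of each list that were counted or had the highest levels in V8. Other genes of the lists (such as *Tns1*, *Ache*, *Hoxd11* and *Esr1*) were chosen after their values were seen.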

Additional observations from a re-analysis of the deposited data

Results flagged for a closer look

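The matrix holds a row for the reporter sequence that the comparisons above did not use. It was looked at because its reads came from the transgene by which the nuclei were sorted. In V8 a corrected count of it was found in 8.44, 5.17 and 4.92% of nuclei in lumbar/sacral replicates 1, 2 and 3, a mean of 6.18%. The share was 2.75 to 8.08% in other visceral nuclei, 6.16 to 7.48% in skeletal MNs and 3.56 to 6.97% in interneurons, and the ranges overlap. No library without the reporter was analysed here, so there is no background for it.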

How the results depend on the processing

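The difference in V8 share was 7.33 points over all cholinergic nuclei, 2.82 over all annotated nuclei and 30.4 with the replicate block or without doublets, and 29.0 to 32.8 with 1 library left out. No named gene changed direction between V8 and the other visceral nuclei: of 297 values, 253 moved by less than the SD over libraries, and the others mostly with the pseudocount. Genes lower in V8 numbered 154 with a pseudocount of 20 and 109 with at least 10 corrected counts in every sum, where fewer genes were tested, against 270. With 1 lumbar/sacral library left out, higher genes numbered 190 to 210 and lower ones 323 to 366. Thinned to 4000 corrected counts, *Sst* was found in 69.7% of V8 nuclei, *Adra1a* in 63.4% and *Fbn2* in 98.0%. Genes higher in lumbar/sacral visceral nuclei numbered 430 with V8 and 201 without it when no filter was used, where the number tested rose to 20956, and 100 to 247 and 44 to 114 with 1 library left out. With the replicate block they numbered 378 and 163. Among the genes tested by region *Prima1*, *Nos1*, *Stk32a* and *Ebf1* were then called with V8 included. With V8 left out *Ryr3*, *Pde7b*, *Gm32647* and *Col5a2* were then called, whereas *Reln* was not. *Penk* also crossed the threshold there, but it passed the filter only with the lumbar/sacral sums, so this is a description. The block changed no other call of these genes. With V8 left out, *Slc26a7* fell under the filter when a lumbar/sacral library was left out and could not be tested. Lumbar/sacral replicates 1 and 3 had the lowest median totals per nucleus, so shares of nuclei with a low transcript are least certain there. Lumbar/sacral replicate 2, at 7175 over all cholinergic nuclei, lay close to cervical replicate 1, at 7087.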
